A study of Mus musculus with 48 samples.

Results

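Antibody heavy-chain repertoires of the spleen were compared between B6 mice that received the microbiota of NOD.B10.H2b mice (NOD-FMT) and untreated B6 mice (NC). All spleen libraries of these groups were taken, by their labels: 10 NOD-FMT and 5 NC libraries, 15 of the 48 samples in the series, each from 1 mouse. NOD-FMT recipients were C57BL/6 mice whose faeces were first mixed and shared among cages for 7 days, which is not described for NC mice. The recipients then drank ampicillin, vancomycin and metronidazole for 7 days. From 5 weeks of age they were gavaged once daily for 3 weeks with the supernatant of faeces pooled from 30 male NOD.B10.H2b mice over 20 weeks old. NC mice had neither antibiotics nor gavage, and their age and sex are not given in the sources used here. Transferred microbiota, mixing of faeces, antibiotics, gavage, age and any difference in when libraries were made therefore cannot be told apart in this comparison. The 9 PBS-T mice had the same antibiotics and were gavaged with PBS. Their spleen values are given beside the main ones for most results that bear on this.

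NOD.B10.H2b mice develop an autoimmune disease of the lacrimal and salivary glands that resembles Sjögren's disease. A heavy chain joins a V, a D and a J segment, and the join forms HCDR3, the most variable loop of the antigen-binding site. Naive B cells of the spleen carry IgM and IgD. After activation they may switch to IgG, IgA or IgE and gain point mutations in the V segment. IgA is the main antibody of mucosal surfaces and much of it binds gut bacteria. Spleen IgA comes from B cells and plasma cells that have switched, partly in response to the microbiota.

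Heavy-chain mRNA was copied with primers in the CH1 domain that carried a unique molecular identifier, so the deposited counts are molecules rather than reads. After removal of nucleotide sequences found in 3 or more of all 24 spleens, NOD-FMT libraries held 151402 to 2032338 molecules (median 403375) and NC libraries 78315 to 536935 (median 393946). The filter took 5.99 to 11.96% of the molecules in NOD-FMT and 5.63 to 9.69% in NC, and 4.94 to 11.92% in PBS-T other than PBS-T 6, which lost 66.6%. A clonotype was a set of molecules with 1 V gene, 1 J gene and 1 HCDR3 amino acid sequence. In such bulk libraries, fewer cells of a class and less mRNA per cell cannot be told apart. The shallowest library of each group, NOD-FMT 2 and NC 2, stood apart from its group in several measures. Their IgD molecules had a mean of 1.62 and 1.43 V mutations, against group medians of 0.403 and 0.349. Calls that were lost without both libraries are named below.

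Spleen IgA carried fewer V mutations in NOD-FMT mice than in NC mice, and more of it was germline in the V segment. Mutations were counted as mismatches to the germline V gene per molecule. Mean mutations per IgA molecule in the 10 NOD-FMT spleens ran from 1.899 to 3.82 with a median of 2.88. The NC spleens had 4.74, 4.11, 4.86, 4.90 and 5.38. Every NOD-FMT mouse was below every NC mouse. The group means were 2.85 ± 0.488 (SD, n = 10) and 4.80 ± 0.453 (SD, n = 5), a difference of -1.95 mutations. By an exact two-sided permutation test over the mice, p was 0.000333, the smallest that 3003 splits allow, and 0.0028 after Benjamini-Hochberg adjustment over 51 single-value tests. Of those 51 tests, 10 passed an adjusted threshold of 0.05 (19.6%), and of the 43 measures made per mouse, 2 had groups that did not overlap (4.65%). Both of those were measures of IgA mutation.

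The second was the share of IgA molecules without any V mutation. It ran from 25.1 to 51.0% in NOD-FMT with a median of 29.3%, and was 20.4, 18.5, 19.3, 20.3 and 20.2% in NC. The 5 NC mice lay within a narrow band below all NOD-FMT mice. The means were 31.5 ± 7.28% (SD, n = 10) and 19.7 ± 0.831% (SD, n = 5), a difference of 11.8 percentage points (exact permutation p = 0.000333, adjusted p = 0.0028). Molecules with 1 to 4 mutations made up 44.9% of NOD-FMT IgA and 33.6% of NC IgA. The bin of 5 to 9 mutations held 18.8% and 33.3%, and that of 10 or more held 4.81% and 13.3%. The NOD-FMT distribution was thus shifted down across its range, not only at zero. PBS-T mice had a mean of 2.82 ± 0.530 mutations (SD, n = 9), from 2.02 to 3.72, and 39.7% unmutated IgA. Their range of mutations, too, lay below all NC mice, and their unmutated share (29.9 to 47.6%) lay above all NC mice.

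**Figure D1:**
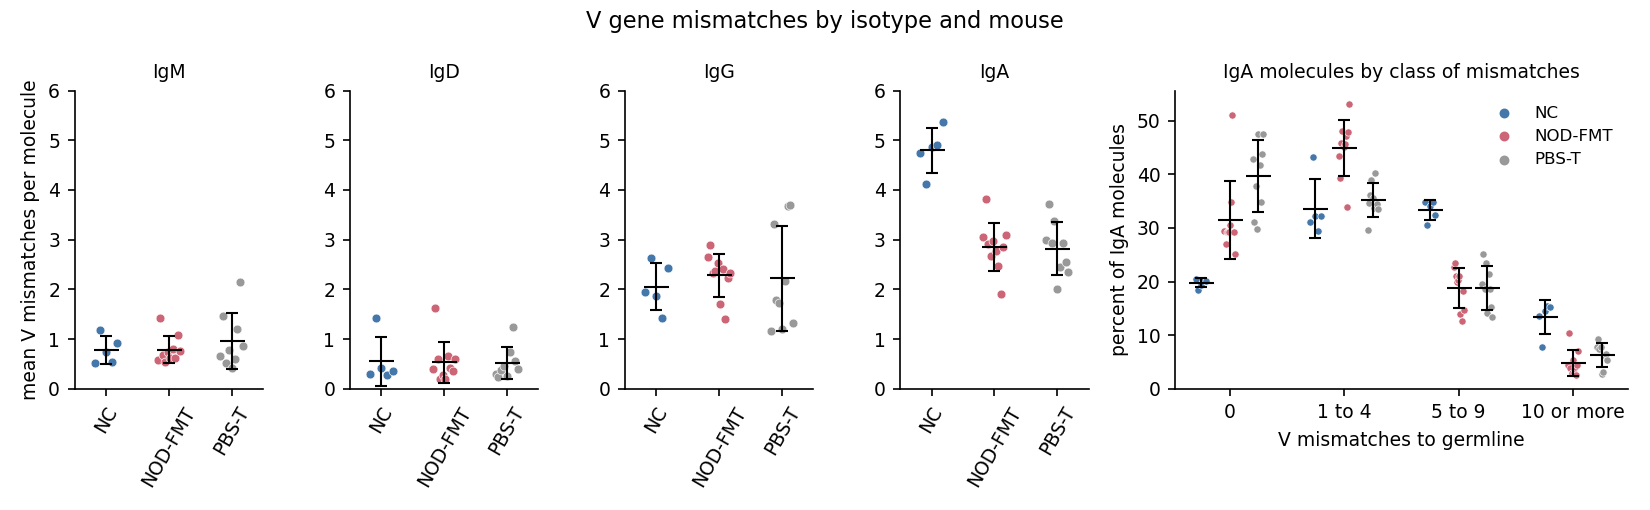
V mutations of spleen antibodies by class, with 1 point per mouse for NOD-FMT, NC and PBS-T and a bar at each group mean. In IgA the NOD-FMT mice lie between 1.899 and 3.82 mutations per molecule, all below the NC mice, while the groups overlap in IgM, IgD and IgG.

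The difference was seen across V genes and was smaller when large clonotypes lost their weight. Among 47 V genes with at least 20 IgA molecules in each mouse, mean mutations were lower in NOD-FMT for 43 and higher for 4, with a median difference of -1.16, although for 0 of the 47 did the groups separate completely. Counting each IgA clonotype once gave 3.24 ± 0.289 mutations in NOD-FMT and 3.93 ± 0.187 in NC, a difference of -0.70 with overlapping ranges (exact permutation p = 0.000666). Counted this way, the unmutated share differed by only 2.15 percentage points (exact permutation p = 0.01998, not passing adjustment). Without NOD-FMT 2 and NC 2 the difference per molecule was -2.22.

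The other classes did not show this difference. Mean mutations were 0.784 in NOD-FMT and 0.782 in NC for IgM, 0.532 and 0.554 for IgD, and 2.28 and 2.05 for IgG, and none of these passed. The contrast between classes was tested directly within mice. IgA exceeded IgG by 0.567 ± 0.297 mutations in NOD-FMT (SD, n = 10) and by 2.74 ± 0.748 in NC (SD, n = 5), and exact permutation of the mice gave p = 0.000333 (adjusted p = 0.000666 over 6 such tests). The group difference in IgA also departed from that in IgM, by -1.95, and from that in IgD, by -1.92, each with the same p.

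The sequences below illustrate an unmutated and a mutated V segment, and were chosen after their values were seen. They are the stretches from CDR1 to CDR2, the first antigen-contact loops, of the most abundant nucleotide sequence in the IgA of 3 spleens. Capitals mark bases that differ from the germline V gene, and the first and second sequences use the same gene, IGHV1-26.

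NOD-FMT 1, IGHV1-26: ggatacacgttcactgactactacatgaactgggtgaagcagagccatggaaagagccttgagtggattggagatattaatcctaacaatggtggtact

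NC 1, IGHV1-26: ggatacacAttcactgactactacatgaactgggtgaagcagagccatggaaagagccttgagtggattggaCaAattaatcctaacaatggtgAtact

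NOD-FMT 8, IGHV5-4: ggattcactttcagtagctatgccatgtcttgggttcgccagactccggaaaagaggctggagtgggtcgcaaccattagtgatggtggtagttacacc

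The NOD-FMT 1 sequence had 0 V mutations in 995 molecules, while that of NC 1 had 7, of which 4 lie in the stretch shown, in 1207 molecules. The NOD-FMT 8 sequence was unmutated in 17561 molecules. Over all 15 spleens, the most abundant IgA sequence had 0 mutations in 6 of 10 NOD-FMT and 1 of 5 NC mice. The others had 1 to 14 mutations in NOD-FMT, with the 14 in NOD-FMT 2, and 1, 3, 4 and 7 in NC, so single top sequences did not separate the groups. The NOD-FMT 8 sequence belonged to an IGHV5-4/IGHJ4 clonotype that made up 35.5% of the IgA of NOD-FMT 8. It held 8.84% of all molecules of this mouse (95% Wilson interval 8.75 to 8.92%, counting error only). That clonotype was the largest of any of the 15 spleens. With the largest IgA clonotype of every mouse left out, the mean IgA mutations still differed by -1.96. The largest clonotype of the other spleens held 0.698 to 4.71% of molecules. In NOD-FMT 3 it was an IGHV1-59/IGHJ4 clonotype at 4.71% in which IGHG3 was the most frequent isotype, with 42.8%. In NOD-FMT 10 it was an IGHV11-2/IGHJ4 clonotype at 0.880%, of which 99.0% was IgA. IGHV11-2 is a gene known from B-1 cells that bind phosphatidylcholine.

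The share of IgA was lower and that of IgG higher in NOD-FMT mice, with overlap between the groups. IGHA made up 7.78 to 16.4% of NOD-FMT molecules, with a median of 9.88%. In NC it made up 20.3, 24.3, 13.6, 16.9 and 13.3%. The means were 10.95 ± 2.95% (SD, n = 10) and 17.7 ± 4.67% (SD, n = 5), a difference of -6.76 percentage points (exact permutation p = 0.0040, adjusted p = 0.0255). PBS-T mice had 9.51 ± 5.73% (SD, n = 9). All IgG subclasses together held 8.87 to 21.3% in NOD-FMT, with a median of 12.9%, and 7.73, 4.87, 9.87, 5.92 and 8.77% in NC. The means of 14.4 ± 4.54% (SD, n = 10) and 7.43 ± 2.04% (SD, n = 5) differed by 6.96 points (exact permutation p = 0.0080, adjusted p = 0.0453), and PBS-T mice had 11.4%.

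IGHG2B had the highest mean of the IgG subclasses in both groups, though not in every mouse, and was the only one called. It held 4.22 to 10.3% of molecules in NOD-FMT, with a median of 5.99%, and 2.67, 1.88, 4.98, 2.55 and 3.90% in NC. The means were 6.55 ± 2.22% (SD, n = 10) and 3.20 ± 1.24% (SD, n = 5), and the exact permutation p was 0.0093 (adjusted p = 0.0476). PBS-T mice had a mean of 5.10%, from 2.24 to 10.4%. IGHG3, an isotype typical of responses that need no T cell help, held 2.75 ± 1.37% (SD, n = 10) and 0.876 ± 0.512% (SD, n = 5). It did not pass (exact permutation p = 0.0140, adjusted p = 0.0575). PBS-T mice had a mean of 1.15%, from 0.710 to 2.10%. NOD-FMT 8 had 0.321%, below all NC mice, and IGHG3 passed when this mouse was left out. IGHM was at 68.2% in both groups, and IGHD, IGHG1, IGHG2C and IGHE were not called. The calls on IGHA, IGHG2B and total IgG lay near the threshold. The IGHA call was lost when NC 1, NC 2 or NC 4 was left out. Leaving out 1 mouse ended the IGHG2B call for 9 of the 15 mice (differences of 2.93 to 3.796 points over all 15 omissions) and the call on total IgG for 8 (6.20 to 7.58 points). None of the 3 passed without both NOD-FMT 2 and NC 2, where IGHA differed by -4.83, IGHG2B by 3.24 and total IgG by 6.93 points.

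**Figure D2:**
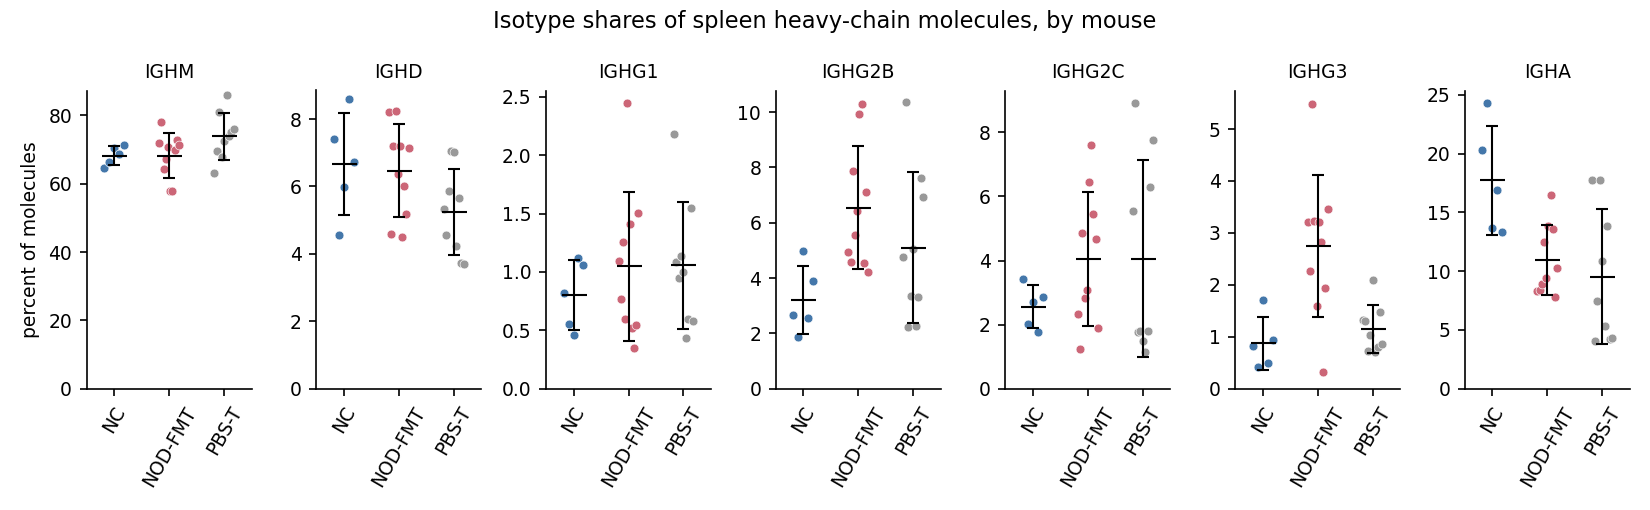
Percent of spleen heavy-chain molecules of each isotype, with 1 point per mouse and a bar at the group mean for NOD-FMT, NC and PBS-T. The IGHA share is lower in NOD-FMT (7.78 to 16.4%) than in most NC mice, and IGHG2B is higher (4.22 to 10.3%), with overlap between the groups in both.

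V gene usage differed between the groups in IgA and IgG. It was counted as numbers of clonotypes per V gene, each clonotype once whatever its number of molecules. HCDR3 variants count as separate clonotypes, so a large B cell clone with such variants can still add to its gene's count. How much such variants added was not tested. By edgeR's quasi-likelihood test with Benjamini-Hochberg adjustment, 13 of 76 genes tested passed in IgA (17.1%), 7 higher (9.21%) and 6 lower (7.89%) in NOD-FMT. In IgG 4 of 75 passed (5.33%), 2 in each direction. Over clonotypes of all isotypes, and likewise in IgM, 0 of 99 genes passed, with 5 at an unadjusted p under 0.05 in each. DESeq2, run without the filter on low counts, called 2 of 135 genes over all isotypes and 0 of 132 in IgM. The 2 were IGHV1-20 and IGHV8-11, and IGHV1-20 also had the smallest p of edgeR, with a log2 fold change of 0.32 and an edgeR adjusted p of 0.131. It was also the 1 gene of the 99 whose shares did not overlap between the groups (1.01%), with 0.218 to 0.291% in NOD-FMT and 0.1798 to 0.208% in NC. Among genes with at least 0.1% of clonotypes, the smallest p over all isotypes on the higher side belonged to IGHV1-20, IGHV14-3 and IGHV1-81 (log2 fold changes 0.32, 0.15 and 0.11). On the lower side they belonged to IGHV1-15, IGHV2-9 and IGHV14-4 (-0.19, -0.16 and -0.15). By the same rule, those of IgM were IGHV1-20, IGHV1-31 and IGHV1-42 on the higher side (0.34, 0.25 and 0.26) and IGHV1-15, IGHV14-4 and IGHV2-9 on the lower side (-0.20, -0.17 and -0.15). None of these passed. Whether a gene's difference in IgA departs from that in IgM was not tested.

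IGHV14-3, of the small SM7 family, differed most clearly. The gene lies on chromosome 12 from 114059845 to 114060321 on the minus strand of GRCm38, within the V gene cluster. It held 2.15 to 5.41% of IgA clonotypes in NOD-FMT, with a median of 2.98%, and 1.13, 1.11, 1.43, 1.33 and 1.296% in NC. All NOD-FMT mice were above all NC mice. The log2 fold change was 1.27 ± 0.19 (SE) with an edgeR adjusted p of 1e-05. IGHV14-3 was higher in IgG too, at 2.55 ± 0.899% (SD, n = 10) against 1.13 ± 0.256% (SD, n = 5), again without overlap, with a log2 fold change of 1.14 and an edgeR adjusted p of 0.00027. PBS-T mice had means of 1.40% in IgA and 1.19% in IgG, both near the NC means. In IgA they ran from 0.998 to 2.55%, and the highest, PBS-T 3, lay within the NOD-FMT range. Complete separation of the groups occurred for 3 of 76 genes in IgA (3.95%) and for 1 of 75 in IgG (1.33%).

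IGHV1-59, of the large J558 family, was the only other gene called in both classes. Its IgA share was 1.27 to 4.18% in NOD-FMT, with a median of 2.10%, and 1.45, 0.886, 1.04, 0.955 and 1.11% in NC. NOD-FMT 3, whose largest clonotype used this gene, was highest, and NC 1 overlapped the NOD-FMT range. The log2 fold change was 0.97 in IgA (edgeR adjusted p = 0.0023) and 0.82 in IgG (edgeR adjusted p = 0.046), and the latter was not called without NOD-FMT 2 and NC 2 (log2 fold change 0.86). PBS-T mice had 0.862% in IgA, below the NC mean of 1.09%.

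The other genes higher in NOD-FMT IgA were IGHV6-3 and IGHV6-6 of the IGHV6 (J606) family, IGHV7-3 of the IGHV7 (S107) family, IGHV2-6-1 and IGHV8-5. Families were not tested, and 9.21% of all genes were called higher. The S107 family is known for antibodies to phosphorylcholine on bacterial surfaces. IGHV7-3 held 2.16% against 1.09% in NC (log2 fold change 0.90), IGHV6-6 1.39% against 0.786% (0.74) and IGHV6-3 2.18% against 1.35% (0.62), as group means. In PBS-T mice the same genes held 2.21, 1.32 and 2.13%, close to NOD-FMT. IGHV7-1, the gene of the classical phosphorylcholine response, held 0.535% and 0.417% and was not called. IGHV2-6-1 held 0.244 to 0.657% of NOD-FMT IgA clonotypes and 0.141, 0.200, 0.0393, 0.210 and 0.122% of NC, with no overlap. Its log2 fold change was 1.56 (edgeR adjusted p = 0.0023), and the NC shares rested on 32 clonotypes in all. PBS-T mice had 0.133 to 0.529% with a mean of 0.285%, overlapping both groups. In IgG its log2 fold change was -0.27 and did not pass. IGHV8-5 was the least even, from 0.203 to 1.84% in NOD-FMT, with a log2 fold change of 1.41 (edgeR adjusted p = 0.018). Its group means were 0.688% in NOD-FMT, 0.237% in NC and 0.407% in PBS-T.

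**Figure D3:**
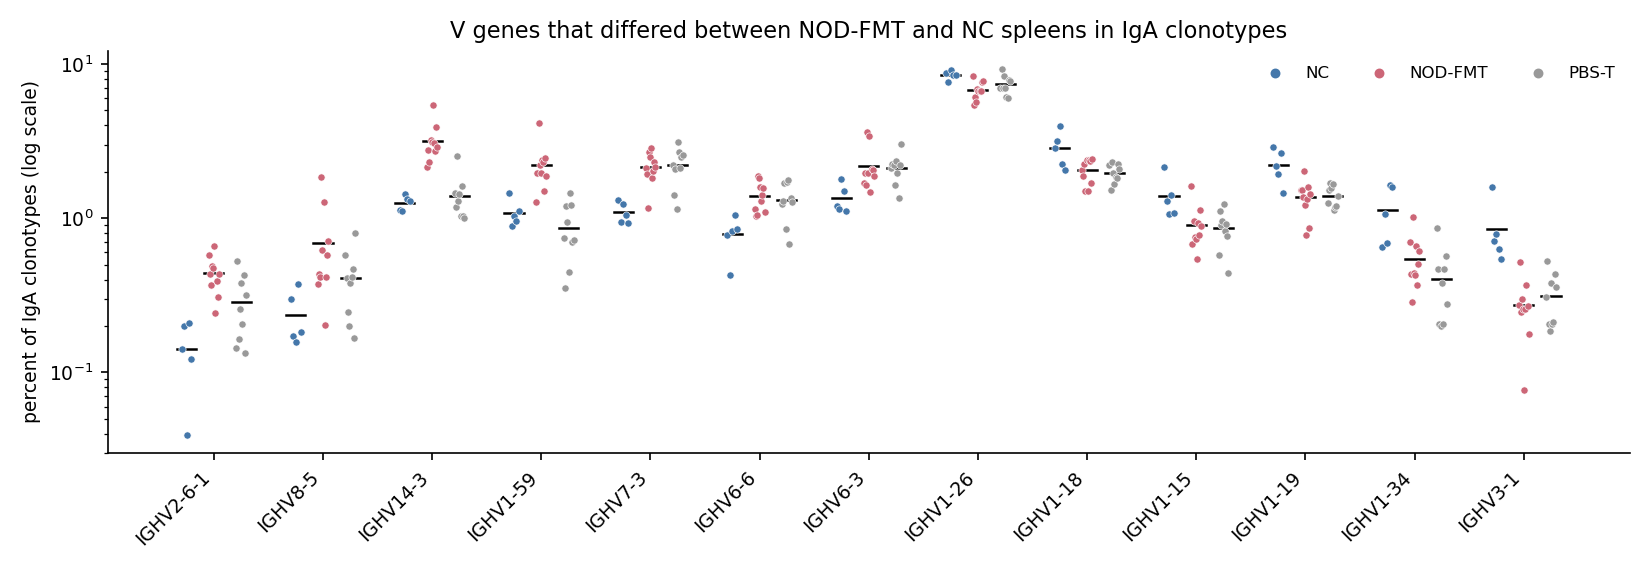
Percent of spleen IgA clonotypes that use each of the 13 V genes called in IgA, with 1 point per mouse for NOD-FMT, NC and PBS-T. IGHV14-3 separates NOD-FMT (2.15 to 5.41%) from NC, while IGHV3-1 is lower in NOD-FMT than in any NC mouse. For IGHV14-3 the PBS-T mean is near that of NC, though PBS-T 3 (2.55%) lies within the NOD-FMT range.

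The 6 genes lower in NOD-FMT IgA were IGHV3-1 and 5 of the 40 tested J558 genes, beside 7.89% called lower of all genes tested. IGHV1-59, called higher, is of the same family. IGHV3-1 held 0.0773 to 0.518% of NOD-FMT IgA clonotypes, with a median of 0.264%, and 1.59, 0.714, 0.786, 0.629 and 0.547% in NC. The groups did not overlap, and the log2 fold change was -1.69 ± 0.31 (SE; edgeR adjusted p = 0.00025). PBS-T mice had 0.314%. The J558 genes were IGHV1-34 (log2 fold change -1.10), IGHV1-19 (-0.75), IGHV1-15 (-0.67), IGHV1-18 (-0.54) and IGHV1-26 (-0.37), the last being the most used gene of the spleen, with 6.80% and 8.49% of IgA clonotypes. PBS-T means were 0.404% for IGHV1-34, 1.40% for IGHV1-19, 0.860% for IGHV1-15 and 1.97% for IGHV1-18, against 0.545, 1.37, 0.905 and 2.04% in NOD-FMT and 1.13, 2.22, 1.40 and 2.87% in NC. IGHV1-26 was at 7.39% in PBS-T. The J558 family as a whole held 65.0 ± 4.34% (SD, n = 10) of IgA clonotypes in NOD-FMT, 69.6 ± 1.82% (SD, n = 5) in NC and 63.6% in PBS-T. In IgG the genes that fell were IGHV2-6 (log2 fold change -1.35) and IGHV3-8 (-1.18), each with an edgeR adjusted p of 0.0083. IGHV2-6 held 0.209% of IgG clonotypes in NOD-FMT, 0.524% in NC and 0.174% in PBS-T, and IGHV3-8 0.416, 0.894 and 0.530%, as group means. IGHV3-8 rested partly on NC 5, without which its log2 fold change was -0.57.

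Some V genes were listed beforehand, with earlier results of these data known, so their passing is not independent of these data. Of these, IGHV6-3, IGHV6-6 and IGHV1-26 passed in IgA, as given above. IGHV1-9, IGHV9-3, IGHV1-55, IGHV1-69 and IGHV1-53 passed in no class. The B-1 genes IGHV11-2 and IGHV12-3 were too rare in IgG and IgA to test. So was IGHV5-2 (VH81X), a gene favoured early in B cell development. None of these was called in IgM or over all isotypes. With molecules counted, IGHV5-2 was called lower in IgM. Of the 13 IgA calls, IGHV1-15, IGHV1-18, IGHV6-3 and IGHV6-6 were not called without NOD-FMT 2 and NC 2, with log2 fold changes of -0.66, -0.49, 0.57 and 0.63. Leaving out 1 mouse ended the call of IGHV1-15 for 10 of the 15 mice and that of IGHV6-3 for 7. IGHV1-18 and IGHV8-5 were each lost without NC 2 or NC 3, and IGHV6-6 without NC 2. In IgG, IGHV1-59 was lost for 6 of the 15 mice, IGHV2-6 without NC 1 or NC 5, and IGHV3-8 without NC 5. With exact permutation of shares in place of edgeR, 9 of the 13 IgA genes passed. IGHV1-15, IGHV1-18, IGHV6-3 and IGHV8-5 did not. In IgG, IGHV14-3, IGHV2-6 and also IGHV1-15 then passed, while IGHV1-59 and IGHV3-8 did not. When molecules were counted in place of clonotypes, 17 IgA genes passed and 6 of them were among the 13. IGHV14-3 was then called in neither IgA (log2 fold change 1.08) nor IgG (1.37), and IGHV3-1, IGHV1-59, IGHV1-26, IGHV1-18, IGHV6-3 and IGHV6-6 were not called in IgA. IGHV1-59 and IGHV3-8 were also not called in IgG.

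Spleens shared more clonotypes within a group than across the groups, most clearly in IgA. PBS-T spleens were not part of these pairs, so sharing between NOD-FMT and PBS-T is not given. Each library was drawn down to the same number of molecules, 12763 for IgA. A pair of NOD-FMT mice then shared 25.7 ± 7.57 IgA clonotypes (SD over 45 pairs, 14.6 to 53.0) and a pair of NC mice 20.1 ± 5.32 (SD over 10 pairs, 13.4 to 28.8). A NOD-FMT and an NC mouse shared 7.68 ± 2.61 (SD over 50 pairs, 2.4 to 13.2). No pair across the groups shared as many as any pair within a group. IgG showed the same order at lower numbers, with 6.63, 4.70 and 2.46 shared clonotypes. In IgM the gap was small beside the total, with 266, 284 and 247.

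The difference between within-group and across-group similarity was tested by exact permutation of the mice, on the cosine of presence and absence. It was 0.0078 in IgA, 0.0034 in IgG, 0.0011 in IgM and 0.0014 over all isotypes, each with exact permutation p = 0.000333 (adjusted p = 0.0028). In every class, 15 of 15 mice shared more with their own group than with the other. Whether NOD-FMT mice shared more among themselves than NC mice did was a separate test and did not pass in any class (exact permutation p = 0.27 in IgA and 0.51 in IgG). After the filter, a pair of NOD-FMT or NC spleens had 0.0602 to 0.498% of the nucleotide sequences of the smaller library in common. Without NOD-FMT 3 the highest was 0.192%. Sequences found in 3 or more spleens had been removed by the filter, so these values leave them out. With all sequences found in 2 spleens removed as well, the difference was 0.0071 in IgA, with the same p in all 4 classes. Cages and litters are not given in the sources used here.

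**Figure D4:**
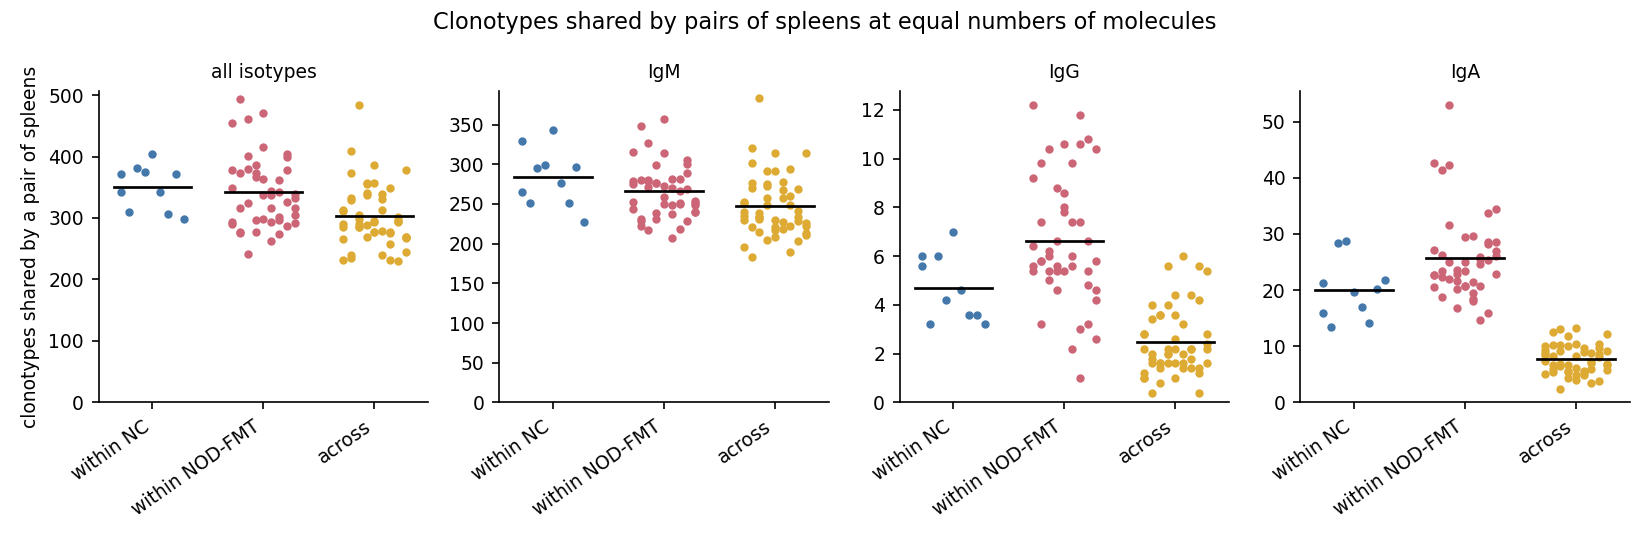
Shared clonotypes per pair of spleens at equal depth, by antibody class, with 1 point per pair for pairs within NOD-FMT, within NC and across the groups. In IgA the pairs across the groups lie between 2.4 and 13.2 shared clonotypes, below the pairs within either group.

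The clonotypes most widely shared in NOD-FMT IgA are described here by their presence, which also chose them, so no test is given. Of 98276 IgA clonotypes in the 24 spleens, 8 were found in at least 8 of the 10 NOD-FMT spleens. Of these, 7 had no IgA molecule in any NC spleen. Depending on the depth, a count of 0 there allows a share of up to 0.00281 to 0.0157% of IgA. NC spleens held 3499 to 5659 IgA clonotypes each, so most of the 98276 also had no IgA molecule in NC. All 10 NOD-FMT spleens held 2 clonotypes in common, and all 5 NC spleens 3. Of those 3, IGHV1-18/IGHJ1 was in the IgA of 0 NOD-FMT and 3 PBS-T spleens. Its median share of NC IgA was 0.00372%, while a count of 0 in NOD-FMT allows up to 0.00165 to 0.0235%. IGHV8-12/IGHJ1 was in 4 NOD-FMT and 0 PBS-T spleens, and IGHV7-1/IGHJ1 is described below. The filter removes sequences found in 3 or more spleens and so acts on such clonotypes. Without it, 13 clonotypes were in at least 8 NOD-FMT spleens, 10 of these had no IgA molecule in NC, 4 were in all 10 NOD-FMT spleens and 6 in all 5 NC spleens. The sequences below are the HCDR3 of the leading clonotypes, from the codon after the conserved cysteine, as the most abundant nucleotide form. In the clonotypes given with several forms, capitals mark bases that differ from the first form. These show that one HCDR3 protein sequence was encoded by different nucleotides in different mice.

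IGHV6-3/IGHJ3, most abundant form, NOD-FMT 3 and 10: acaggcgacggatttgcttac

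IGHV6-3/IGHJ3, form in 5 NOD-FMT spleens (4, 7, 8, 9 and 10): acaggcgacggGtttgcttac

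IGHV6-3/IGHJ3, form in NOD-FMT 6: acaggTgaTggTtttgcttac

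IGHV6-3/IGHJ3, form in 5 NOD-FMT spleens (2, 5, 6, 7 and 10): acaggGgacggGtttgcttac

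IGHV1-76/IGHJ2, most abundant form, NOD-FMT 3 and 4 and PBS-T 1 and 2: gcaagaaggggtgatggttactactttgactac

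IGHV1-76/IGHJ2, form in NOD-FMT 3, 4 and 5 and PBS-T 3: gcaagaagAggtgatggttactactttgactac

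IGHV1-76/IGHJ2, form in NOD-FMT 2: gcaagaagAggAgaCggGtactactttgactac

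IGHV1-55/IGHJ3: gcaagagggtttacttac

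IGHV7-1/IGHJ1: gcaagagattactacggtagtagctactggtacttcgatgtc

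The IGHV6-3/IGHJ3 clonotype, with an HCDR3 of 7 residues, was in the IgA of 10 of 10 NOD-FMT, 0 of 5 NC and 0 of 9 PBS-T spleens. It held 1291 IgA molecules in all, with a lowest share of 0.00257% (1 molecule, in NOD-FMT 1), a median of 0.197% and a highest share of 0.668% of a NOD-FMT mouse's IgA. The lowest share is below the limit that a count of 0 allows in any NC spleen. In PBS-T spleens that limit ran from 0.00323 to 0.0779%. It was written in 17 nucleotide forms, of which 12 occurred in 1 spleen. Another IGHV6-3/IGHJ3 clonotype of 7 residues was in the IgA of 9 NOD-FMT, 0 NC and 0 PBS-T spleens. Its median share of NOD-FMT IgA was 0.0225% and its highest 0.206%. That median lies within the range of the PBS-T limits, so a count of 0 does not exclude such a share in every PBS-T spleen. In isotypes other than IgA, each of the pair was found in 1 NC spleen. The gene IGHV6-3 lies on chromosome 12 from 114391712 to 114392169 on the minus strand of GRCm38.

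The IGHV1-76/IGHJ2 clonotype, with an HCDR3 of 11 residues, was more abundant. It was in the IgA of 9 of 10 NOD-FMT spleens, 0 of 5 NC spleens and 7 of 9 PBS-T spleens. It was the largest IgA clonotype of NOD-FMT 2, 4 and 5, at 4.92, 4.71 and 6.60% of IgA. In NOD-FMT 9 the clonotype had 1 IgA molecule (0.00198%), below the limit that a count of 0 allows in any NC spleen. Its IgA molecules were written in 67 nucleotide forms, of which 53 occurred in 1 spleen. In isotypes other than IgA it was found in 3 NC spleens, or 4 without the filter, which left its IgA at 0 in NC. The IGHV1-55/IGHJ3 clonotype of 6 residues was in 10 of 10 NOD-FMT, 0 of 5 NC and 9 of 9 PBS-T spleens. The widely shared clonotypes thus included some seen in both gavaged groups and some, with IGHV6-3/IGHJ3, seen in NOD-FMT IgA and not in PBS-T IgA. The exception among the 8 was IGHV7-1/IGHJ1, with an HCDR3 of 14 residues, which was in 8 NOD-FMT, 5 NC and 6 PBS-T spleens.

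**Figure D5:**
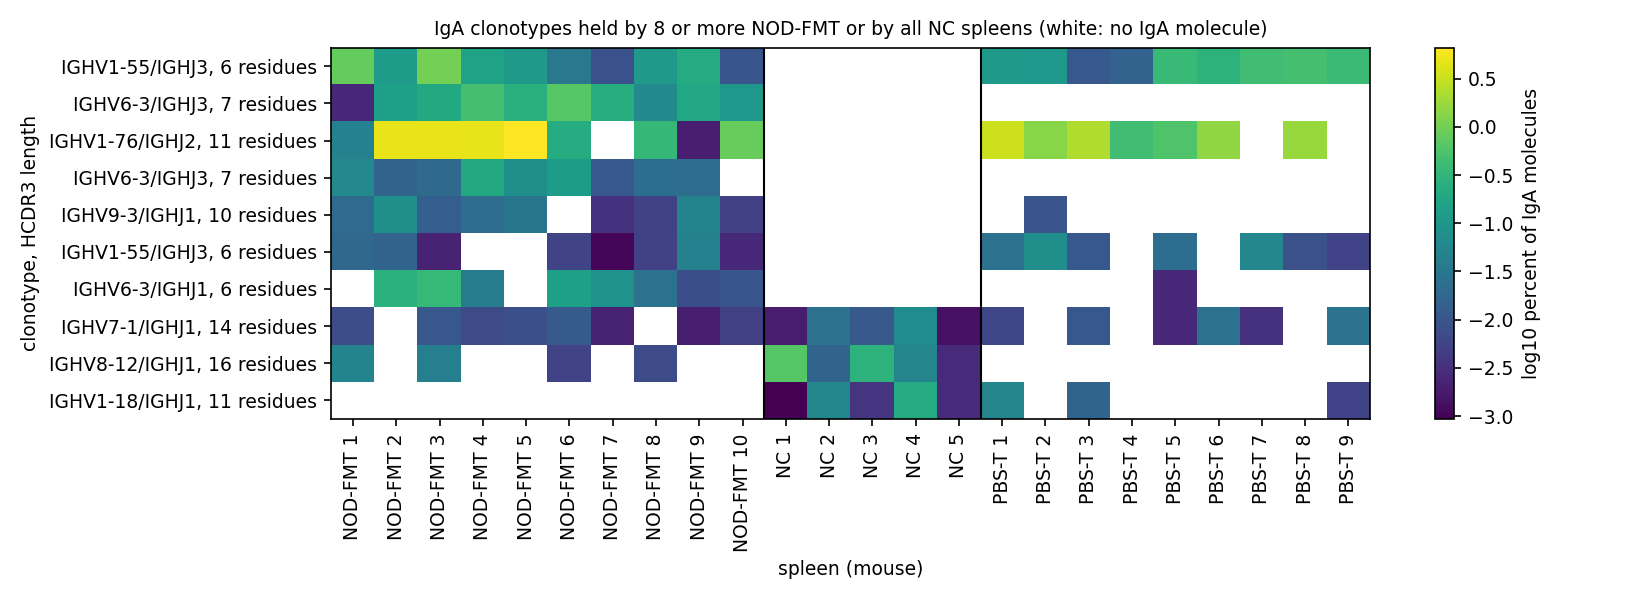
Share of each spleen's IgA molecules held by the widely shared IgA clonotypes, chosen by presence in at least 8 NOD-FMT or in all 5 NC spleens, for each NOD-FMT, NC and PBS-T mouse. The IGHV6-3/IGHJ3 clonotype with the higher share is seen in the IgA of all 10 NOD-FMT spleens and in the IgA of no NC or PBS-T spleen.

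J gene usage, HCDR3 and diversity differed little. IGHJ3 held 23.0 to 24.4% of clonotypes in NOD-FMT and 24.7, 25.6, 25.0, 24.3 and 24.8% in NC. The difference was -1.07 percentage points (exact permutation p = 0.0007, adjusted p = 0.0049), with an overlap at NC 4. It was not called when molecules were counted. The mean HCDR3 length was 11.5 residues in both groups over all clonotypes, and 11.5 and 11.7 in IgA (exact permutation p = 0.0589). Mean HCDR3 charge in IgA was -0.170 in NOD-FMT and -0.268 in NC (exact permutation p = 0.0147, adjusted p = 0.0575), and HCDR3 hydropathy in IgA was -0.716 and -0.676 (exact permutation p = 0.0127, adjusted p = 0.0575). Neither passed the adjusted threshold.

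The number of clonotypes was compared at equal depth. At 78315 molecules of all classes, the median was 34679 clonotypes in NOD-FMT and 37585 in NC, and the log2 difference of means was -0.11 (exact permutation p = 0.17). The numbers in IgM, IgG and IgA were not called either (exact permutation p = 0.098, 0.14 and 0.98). Evenness was 0.867 and 0.878 (exact permutation p = 0.41), and the 100 largest clonotypes held 23.5% and 21.3% of molecules (exact permutation p = 0.38).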

How the data were processed

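Heavy-chain libraries of spleen RNA were analysed from 10 NOD-FMT and 5 NC mice, with 9 PBS-T mice beside them. The authors merged paired reads with PEAR, clustered them by molecular identifier with Clustal Omega, used IgBLAST for the V(D)J genes and IMGT constant genes for the isotype, and dropped unproductive rearrangements. Each deposited value is a count of consensus molecules for 1 unique sequence, without normalization, and the genome build in the labels is mm10. Gene positions are from GENCODE M21 (GRCm38), where 101 of 136 V genes matched.

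Sequences in 3 or more of 24 spleens were removed here. Single values were compared by exact two-sided permutation of the mice. V genes were tested on clonotype numbers with edgeR 4.0.16 in R 4.3.3 (quasi-likelihood, TMM, filterByExpr). Named V genes were those that passed, or the 3 with the smallest p per direction where fewer than 3 passed, among genes with a mean share of at least 0.1% of clonotypes, plus fixed lists. Equal-depth values are means of 5 draws. Total depth sets the floor of a share, and intervals cover counting error only. Alternatives were other filters, molecules or unique sequences in place of clonotypes, DESeq2 1.42.0, exact permutation of V gene shares, a replicate block and omission of each mouse. Omission of NOD-FMT 2 and NC 2, of the largest IgA clonotypes and of sequences in 2 spleens, counting each IgA clonotype once, mice 1 to 5 without pairing, and the widely shared clonotypes without the filter were added after seeing the data. The tests were checked on simulated data. Planted 1.6-fold changes in V gene usage were recovered in 42% of cases in IgA, 49.5% in IgG and 90.5% over all isotypes. The comparison, the lists and the rules were chosen with earlier results of these data known. Nothing states that the libraries were made in 1 run.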

Additional observations from a re-analysis of the deposited data

Results flagged for a closer look

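Of 120 sets of values within a group, 17 had a mouse set apart from the others by Dixon's criterion, and chance gives about 1 in 20. Most concerned NOD-FMT 2 and NC 2, the shallowest library of each group. In IgD, mean V mutations were 1.62 in NOD-FMT 2 and 1.43 in NC 2, and the unmutated share was 65.7% and 67.6%. The log2 number of IgG clonotypes at equal depth was 10.72 in NOD-FMT 2 and 10.43 in NC 2. The mean HCDR3 length of NOD-FMT 2 was 11.03 residues over all clonotypes and 10.96 in IgM, and NC 2 had 35.5% IGHJ2 and 23.9% IGHJ4. Whether depth had a part in these values was not tested.

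The other values that stood apart were those of single mice. NOD-FMT 8, with its large unmutated IGHV5-4/IGHJ4 clonotype, had 51.0% unmutated IgA molecules and an IgA evenness of 0.621. NOD-FMT 3 had the highest share of IGHV1-59 clonotypes, 4.18% in IgA and 4.59% in IgG. IGHV14-3 made up 4.96% of IgG clonotypes in NOD-FMT 6. NC 1 had 1.59% IGHV3-1 in IgA, and NC 5 had 2.00% IGHV3-8 in IgG.

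The group difference was not the same in every class. That in IgA mutations departed from that in IgM by -1.95, in IgD by -1.92 and in IgG by -2.18, each by exact permutation. That in the unmutated share departed by 12.7 percentage points from IgM and by 21.6 from IgG, and that from IgD, 11.004 points, did not pass (exact permutation p = 0.0533).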

How the results depend on the processing

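The within-group sharing of clonotypes kept its direction and its side of the threshold under every alternative run, and the lower IgA mutations did so under each except the replicate block. Same-numbered mice correlated at -0.358 to 0.867 in their deviations, over 0.1 in 13 of 20 cases but not in all, and 9 of 20 were best with their own number, so the numbers were not taken to pair the mice. With the block, 5 pairs allow no p below 0.0625, so the calls on V mutations, J usage and isotype shares came to 0. With mice 1 to 5 of each group but no pairing, chosen after seeing the data, isotype shares gave 1 call, J usage 0, IgA V genes 7 and IgG V genes 2, where the block gave 12 and 3. Without NOD-FMT 2 and NC 2, isotype shares gave 0 calls. With molecules in place of clonotypes, J usage gave 0 calls, IgG V genes 2 and IgM V genes 1, and the difference in IgA HCDR3 charge turned to -0.0350. Without the filter on low counts, 7 IgG V genes and 1 over all isotypes passed, and DESeq2 called 2 over all isotypes. The difference in evenness turned to 0.000361 with mice 1 to 5, with or without the block. Leaving out 1 mouse gave 0 to 4 isotype calls, 8 to 16 IgA V genes, 2 to 6 IgG V genes, and a difference in HCDR3 length of -0.0437 to 0.108 residues. The cause of these changes was not tested, other than fewer mice. The 5 NC mice, 1 of them with 78315 molecules, limit the precision.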
